A study of Rattus norvegicus with 30 samples.

Results

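Liver genes of blood coagulation and of complement, 37 in all, were followed on 30 arrays of rat primary hepatocytes given chlorpromazine. The members are a list of gene symbols, 17 of coagulation, its inhibitors and fibrinolysis and 20 of complement. The list was chosen with earlier results of these data known. Of these, 31 had a probe set that the platform annotation gives to that symbol alone, and all 31 passed the filter on low signals: 13 of coagulation and 18 of complement, among 11494 genes tested. F7, F11, F13b and Proz had no such probe set and are not analysed here, and C2 and Cfb shared probe sets that carry both symbols, so neither was given a value.

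The hepatocytes were bought frozen, came from male Sprague Dawley rats, and were plated on collagen under a Matrigel overlay. Chlorpromazine HCl, a phenothiazine antipsychotic with a known liver liability, was added on the third day of culture. The 6 groups of 5 arrays were vehicle (1% DMSO), 0.8 µM and 20 µM chlorpromazine, each with RNA taken 24 h or 48 h after dosing. The labels describe the 5 wells of a group as independent cultures and name no animals, and the spread behind every p-value is therefore that of wells. The samples given chlorpromazine are labelled by dose, and the DMSO content stands only with the vehicle samples. One vehicle sample of the 24 h group (replicate 2) has a title that reads 2 h and a time entry of 24 h. It was grouped by the time entry, and without it the counts of members at 20 µM against vehicle given below were the same at both times. Leaving it out ended the only call at 0.8 µM and 24 h (Klkb1, adjusted p = 0.0797), that of Masp1 between the times in vehicle (0.104) and that of Mbl2 for the difference between the effects at 48 h and 24 h (0.0691).

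Coagulation is a cascade of proteases, made mostly by the hepatocyte, that ends in thrombin and fibrin and is held in check by serpins and by the protein C system. Plasmin then dissolves the clot. Complement is a second protease cascade in plasma, started by antibody, by lectins that bind microbial sugars, or spontaneously, and it ends in a pore that is built into target membranes. Both cascades draw on the liver for nearly all of their plasma proteins, and hepatocyte transcription factors such as HNF1, HNF4 and C/EBP are known to act at many of these genes.

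The cultures carried the defining hepatocyte transcripts at high signal in every group. The 6 measured hepatocyte markers of 7 listed (Alb, Ttr, Apoa1, Cps1, Serpina1 and Hnf4a) summed to between 360000 and 555700 signal units per array, and none of them changed at either dose. Of 10 markers of Kupffer cells and macrophages, 9 were tested. Their summed signal ran from 22120 to 23920 in vehicle and from 19630 to 22220 at 20 µM at 24 h, and from 19850 to 22130 in vehicle and from 15040 to 16450 at 20 µM at 48 h. At 20 µM Cd14 was lower at 24 h (-0.19 on the log2 scale) and at 48 h (-0.64), and at 48 h C1qa (-0.33) was lower and Cd68 (1.44) was higher. The other macrophage markers did not pass at 20 µM. Cd14 was by far the brightest of the 9, with a mean of 13.98 in vehicle and 13.34 at 20 µM at 48 h. The summed signal therefore mostly follows Cd14 and is not a level of the whole list. Krt19, a cholangiocyte keratin, was lower at 24 h (-1.28, adjusted p = 0.00682) but did not pass at 48 h (-0.29, adjusted p = 0.583). Over all arrays the summed signal ran from 1474 to 2907 for 7 markers of sinusoidal endothelium, from 3323 to 4988 for 8 of stellate cells and fibroblasts, and from 8518 to 13580 for 3 of cholangiocytes, with Vwf, Stab1, Lrat and Krt7 too dim to be tested. The cholangiocyte sum is nearly all Epcam, with group means of 13.12 to 13.56 on the log2 scale. Those of Krt19 were 6.88 to 8.32 and those of Krt7 4.36 to 5.06. The part of these other cells in the results below was not tested. In such bulk RNA, fewer cells and less RNA per cell cannot be told apart.

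At 20 µM most members of both lists were lower than in vehicle, and none was called higher. A gene was called changed at a limma p below 0.05 after adjustment over all 11494 genes of a comparison. At 24 h 24 of the 31 members were lower than in vehicle, 10 of 13 in coagulation and 14 of 18 in complement, where 10.4% of all genes tested were lower (13.4% were higher, and 23.8% changed in either direction). At 48 h 26 of 31 were lower, 11 of 13 and 15 of 18, against 14.9% of all genes (20.3% were higher, and 35.2% changed). Among the 4593 genes with a mean log2 signal of 11 or more, a level that 28 members reach, 17.9% were lower at 24 h and 23.3% at 48 h. The median change of the members was -0.35 at 24 h and -0.59 at 48 h on the log2 scale, while the median over all genes was 0.0096 and 0.035. Since the members were chosen with earlier results of these data known, these shares and medians describe the list and are no independent test of it.

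**Figure D1:**
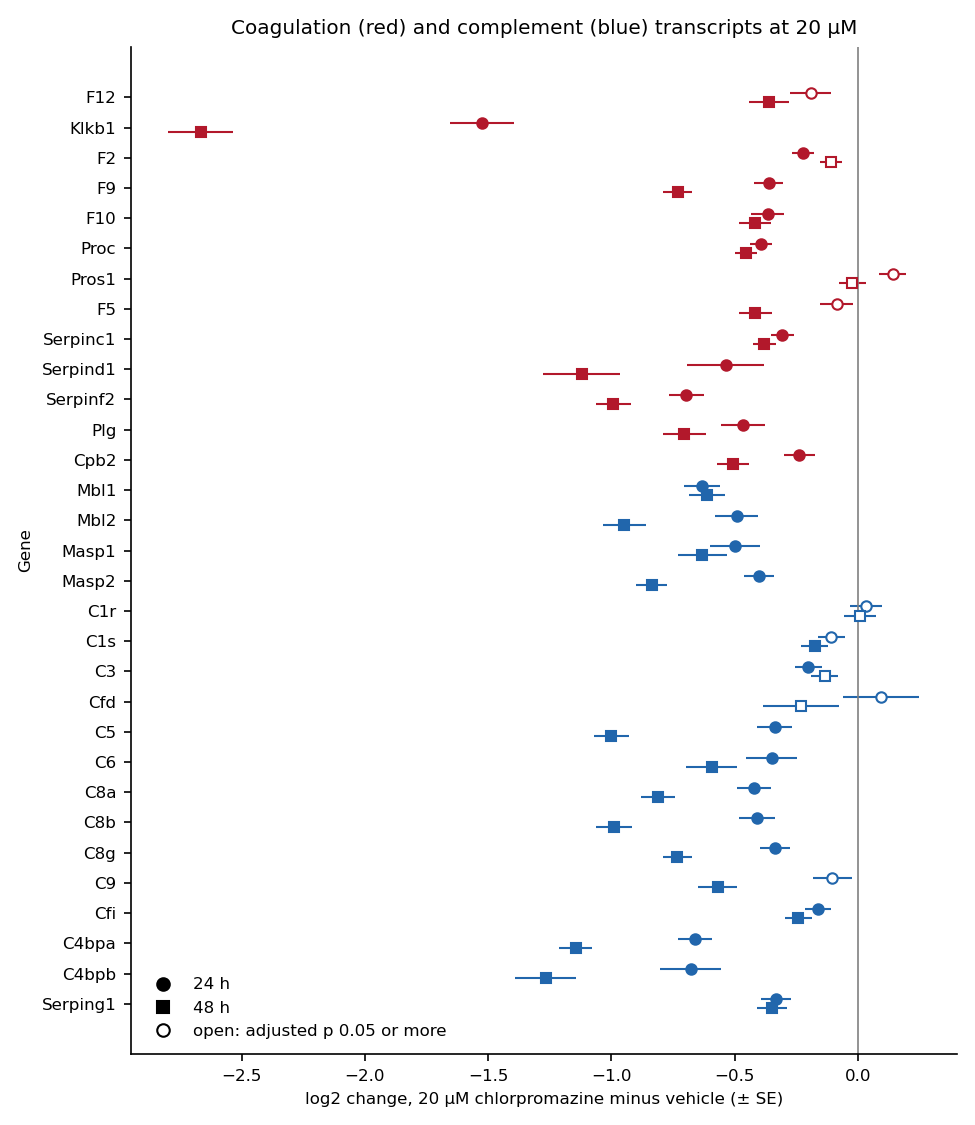
Log2 change (20 µM minus vehicle, horizontal axis, bars ± SE, 5 arrays per group) of the 13 coagulation genes in red and the 18 complement genes in blue, ordered by role, with circles for 24 h, squares for 48 h and open symbols where the adjusted p was 0.05 or more. Klkb1 lies farthest to the left at both times, at -1.53 and -2.67, and the only points to the right of 0 are open.

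Of coagulation 76.9% of the genes tested and of complement 77.8% were lower at 24 h, and 84.6% and 83.3% at 48 h. The median change at 24 h was -0.36 for coagulation and -0.34 for complement, and at 48 h -0.45 and -0.62. All 5 arrays at 20 µM lay below all 5 vehicle arrays for 9 coagulation and 12 complement genes at 24 h (7.56% of all genes) and for 11 and 15 genes at 48 h (11.2% of all genes). Of coagulation 9 genes and of complement 13 were lower at both times, as were 8.32% of all genes. F2 and C3 were called at 24 h only, F12, F5, C1s and C9 at 48 h only, and Pros1, C1r and Cfd at neither time. The difference between the lists was not tested, since genes are not replicates of a condition.

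The stretch just upstream of the start site is shown for Klkb1, which fell most. The others shown are those of members with an HNF1 or STAT motif there, other than Proc. These others were picked by motif and not by change: Pros1 was called at neither time and F2 at 24 h only. Serpinf2 and C8b, which were lower at both times, have neither motif and are not shown. Whether a motif goes with the change of a gene was not tested. RefSeq promoters of GRCr8 were matched by gene ID for 24 of the 31 members. The printed letters are the 120 bases before the start site, on the gene's strand, 5′ to 3′, and capitals mark the HNF1 motif GTTAAT on either strand or, for F9 and Pros1, the STAT motif TTCNNNGAA.
Klkb1, chr16:53691106-53691225, plus strand: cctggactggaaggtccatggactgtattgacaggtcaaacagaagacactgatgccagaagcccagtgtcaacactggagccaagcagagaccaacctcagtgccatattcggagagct
F2, chr3:98065247-98065366, minus strand: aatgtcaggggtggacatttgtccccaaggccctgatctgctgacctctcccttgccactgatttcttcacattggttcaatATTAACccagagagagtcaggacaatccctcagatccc
F9, chrX:143388522-143388641, plus strand: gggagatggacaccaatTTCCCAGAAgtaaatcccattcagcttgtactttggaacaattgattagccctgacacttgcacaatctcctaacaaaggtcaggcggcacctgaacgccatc
Plg, chr1:50915407-50915526, minus strand: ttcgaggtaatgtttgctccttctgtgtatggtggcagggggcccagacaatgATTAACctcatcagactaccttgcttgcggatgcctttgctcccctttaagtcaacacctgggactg
C5, chr3:38759469-38759588, minus strand: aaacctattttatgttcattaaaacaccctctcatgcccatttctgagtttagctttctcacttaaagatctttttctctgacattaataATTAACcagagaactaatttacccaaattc
C8a, chr5:124866632-124866751, minus strand: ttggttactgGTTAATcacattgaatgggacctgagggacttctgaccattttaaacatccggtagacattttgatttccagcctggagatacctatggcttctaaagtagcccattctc
C4bpa, chr13:44663472-44663591, minus strand: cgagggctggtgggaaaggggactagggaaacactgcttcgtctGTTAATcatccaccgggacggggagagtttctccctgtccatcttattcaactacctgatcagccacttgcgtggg
Pros1, chr11:13677179-13677298, plus strand: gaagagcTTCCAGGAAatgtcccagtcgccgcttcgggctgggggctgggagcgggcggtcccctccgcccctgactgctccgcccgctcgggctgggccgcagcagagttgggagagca
Over the whole window of 250 bases before to 50 bases after the start, GTTAAT was found in 3 of 11 coagulation promoters (F2, Proc and Plg) and in 4 of 13 complement promoters (C5, C8a, C4bpa and C4bpb), and in 7.37% of all 27457 promoters. TTCNNNGAA was found in 2 of 11 (F9 and Pros1) and 2 of 13 (C8a and C4bpb), and in 8.68% of all. The C/EBP motif TTGCNNCAA was in the C6 promoter alone among the 24 (2.11% of all), and the HNF4 motif CAAAGTCCA was in none of them (0.375% of all). These are letter matches on both strands, with no measurement of binding.

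In the contact system, Klkb1 fell most and factor XII little. Klkb1 encodes plasma prekallikrein, the protease that frees bradykinin from kininogen. Its log2 signals at 24 h were 12.02, 12.83, 12.57, 12.59 and 12.50 in vehicle and 10.72, 10.98, 11.32, 10.77 and 11.09 at 20 µM. At 48 h they were 12.13, 12.44, 12.65, 12.58 and 12.76 in vehicle and 9.89, 10.04, 9.99, 9.53 and 9.79 at 20 µM. The groups were far apart at both times, and the 48 h treated arrays were the lowest of all 6 groups. The change was -1.53 ± 0.13 at 24 h (SE, 5 arrays per group, adjusted p = 1.68e-10) and -2.67 ± 0.13 at 48 h (adjusted p = 9.07e-17), or 2.88-fold and 6.35-fold lower. By size of change it ranked 34 and 14 among the 11494 genes. F12, factor XII, which starts the contact pathway, read 14.12, 13.91, 13.84, 13.90 and 14.16 in vehicle and 13.74, 13.69, 13.67, 13.56 and 13.47 at 20 µM at 48 h, without overlap. Its change was -0.19 ± 0.082 at 24 h, which did not pass (adjusted p = 0.094), and -0.36 ± 0.082 at 48 h (adjusted p = 0.000716).

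The 5 vitamin K-dependent genes divided into 3 that were lower at both times, prothrombin at 24 h only, and protein S at neither. F9, the protease that activates factor X with its cofactor factor VIII, had log2 signals of 14.93, 14.95, 15.01, 15.07 and 15.16 in vehicle and 14.39, 14.23, 14.31, 14.32 and 14.21 at 20 µM at 48 h. Its 24 h arrays ran from 14.74 to 15.02 in vehicle and from 14.38 to 14.65 at 20 µM. The groups were separate at each time, and F9 changed by -0.36 ± 0.06 and -0.73 ± 0.06 (adjusted p = 2.14e-05 and 1.27e-11).
F10, which converts prothrombin to thrombin, read 14.68, 14.78, 14.80, 14.87 and 14.72 in vehicle and 14.32, 14.28, 14.48, 14.41 and 14.53 at 20 µM at 24 h, and 14.54, 14.52, 14.53, 14.76 and 14.76 and 14.34, 14.02, 14.23, 14.23 and 14.19 at 48 h. It fell by about the same amount at both times, -0.37 ± 0.067 and -0.42 ± 0.067. Proc encodes protein C, which when activated cuts factors V and VIII. At 24 h it read 13.96, 14.05, 14.01, 13.90 and 14.01 in vehicle and 13.62, 13.55, 13.59, 13.65 and 13.56 at 20 µM, and at 48 h 13.81, 13.91, 13.72, 13.86 and 13.77 and 13.34, 13.35, 13.37, 13.33 and 13.42. The treated wells were tightly grouped below the vehicle wells, with changes of -0.39 ± 0.044 and -0.45 ± 0.044 (adjusted p = 3.31e-08 and 5.65e-10).

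Prothrombin was lower by a small amount, called at 24 h only, and protein S was called at neither time. F2, the precursor of thrombin, read 15.98, 16.05, 16.10, 16.14 and 15.99 in vehicle and 15.78, 15.82, 15.82, 15.85 and 15.88 at 20 µM at 24 h, a separation with a small change of -0.22 ± 0.044 (adjusted p = 0.000236). At 48 h the vehicle values were 15.85, 15.87, 15.75, 15.85 and 15.93 and the 20 µM values 15.82, 15.73, 15.75, 15.67 and 15.74. These overlapped, and the change of -0.11 ± 0.044 did not pass (adjusted p = 0.0577). It passed with quantile normalization (0.00234), with array weights (0.0401), and without vehicle replicate 3 (0.0266), 20 µM replicate 1 (0.032) or the 48 h 0.8 µM replicates 1 (0.0417) or 4 (0.0435). With each array centred on its median, the 24 h call of F2 was lost (adjusted p = 0.0578). Pros1, protein S, is the cofactor of activated protein C and circulates partly bound to the beta chain of C4b-binding protein. Its log2 signals were 13.85, 13.90, 13.72, 13.88 and 14.07 in vehicle and 14.04, 13.95, 14.10, 13.95 and 14.10 at 20 µM at 24 h. At 48 h they were 14.13, 14.04, 14.06, 14.22 and 14.14 and 14.03, 14.01, 14.13, 14.12 and 14.19. The groups overlapped at each time, and the changes of 0.14 ± 0.056 (95% interval 0.03 to 0.26) and -0.02 ± 0.056 (95% interval -0.14 to 0.09) did not pass. The 24 h change was called higher with quantile normalization (adjusted p = 0.0279), with array weights (0.029), with each set of 6 consecutive array numbers as a block (0.0372), without vehicle replicate 5 (0.0115) and without 20 µM replicate 2 (0.0484).
F5, the cofactor of factor Xa, read 12.47, 12.40, 12.53, 12.41 and 12.68 in vehicle and 12.17, 12.14, 11.97, 12.14 and 11.97 at 20 µM at 48 h. The groups were apart only at 48 h, with changes of -0.09 ± 0.067 at 24 h (adjusted p = 0.414) and -0.42 ± 0.067 at 48 h (adjusted p = 7.44e-06).

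The 3 serpins of the coagulation list and both fibrinolysis genes were lower at both times. Serpinf2, the main inhibitor of plasmin, had log2 signals of 13.36, 13.27, 13.26, 13.35 and 13.45 in vehicle and 12.59, 12.71, 12.60, 12.49 and 12.83 at 20 µM at 24 h. At 48 h they were 13.10, 12.72, 12.81, 13.11 and 13.12 and 11.94, 11.89, 12.11, 11.97 and 11.98. No treated array reached a vehicle array, and the changes were -0.70 ± 0.071 (adjusted p = 5.24e-09) and -0.99 ± 0.071 (adjusted p = 6.27e-13), the latter 1.99-fold. Serpind1, heparin cofactor II, a thrombin inhibitor, varied more between wells. It read 11.65, 11.88, 11.49, 11.89 and 11.28 in vehicle and 10.64, 11.36, 11.03, 11.26 and 11.21 at 20 µM at 24 h, with overlap, and 11.57, 11.26, 11.73, 11.69 and 11.67 and 10.50, 10.59, 10.58, 10.38 and 10.27 at 48 h, without. Its changes were -0.54 ± 0.16 (adjusted p = 0.0106) and -1.12 ± 0.16 (adjusted p = 6.04e-07), and the 24 h call was lost without 20 µM replicate 1 (adjusted p = 0.0524).
Serpinc1 encodes antithrombin, the chief inhibitor of thrombin and factor Xa. Its arrays at 48 h read 14.78, 14.79, 14.71, 14.87 and 14.86 in vehicle and 14.51, 14.43, 14.44, 14.35 and 14.38 at 20 µM, and those at 24 h ran from 15.24 to 15.41 and from 14.94 to 15.10. The arrays were separate at each time, with changes of -0.31 ± 0.047 and -0.38 ± 0.047.

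Plg is plasminogen, the precursor of plasmin. In vehicle it read 15.45, 15.32, 15.60, 15.60 and 15.35 at 24 h and 15.12, 14.83, 14.96, 15.05 and 15.26 at 48 h. At 20 µM it read 14.67, 15.01, 14.997, 15.09 and 15.22 at 24 h and 14.34, 14.32, 14.39, 14.33 and 14.32 at 48 h. The 48 h treated wells were almost level with each other, and all treated wells lay below the vehicle wells of their time, with changes of -0.47 ± 0.088 (adjusted p = 0.000129) and -0.70 ± 0.088 (adjusted p = 8.28e-08). Cpb2, the carboxypeptidase that slows fibrinolysis, read 14.31, 14.22, 14.002, 14.32 and 14.36 in vehicle and 13.91, 13.73, 13.73, 13.78 and 13.54 at 20 µM at 48 h. It changed by -0.24 ± 0.065 at 24 h, a call lost when arrays were centred on their medians (adjusted p = 0.151), and by -0.51 ± 0.065 at 48 h.

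**Figure D2:**
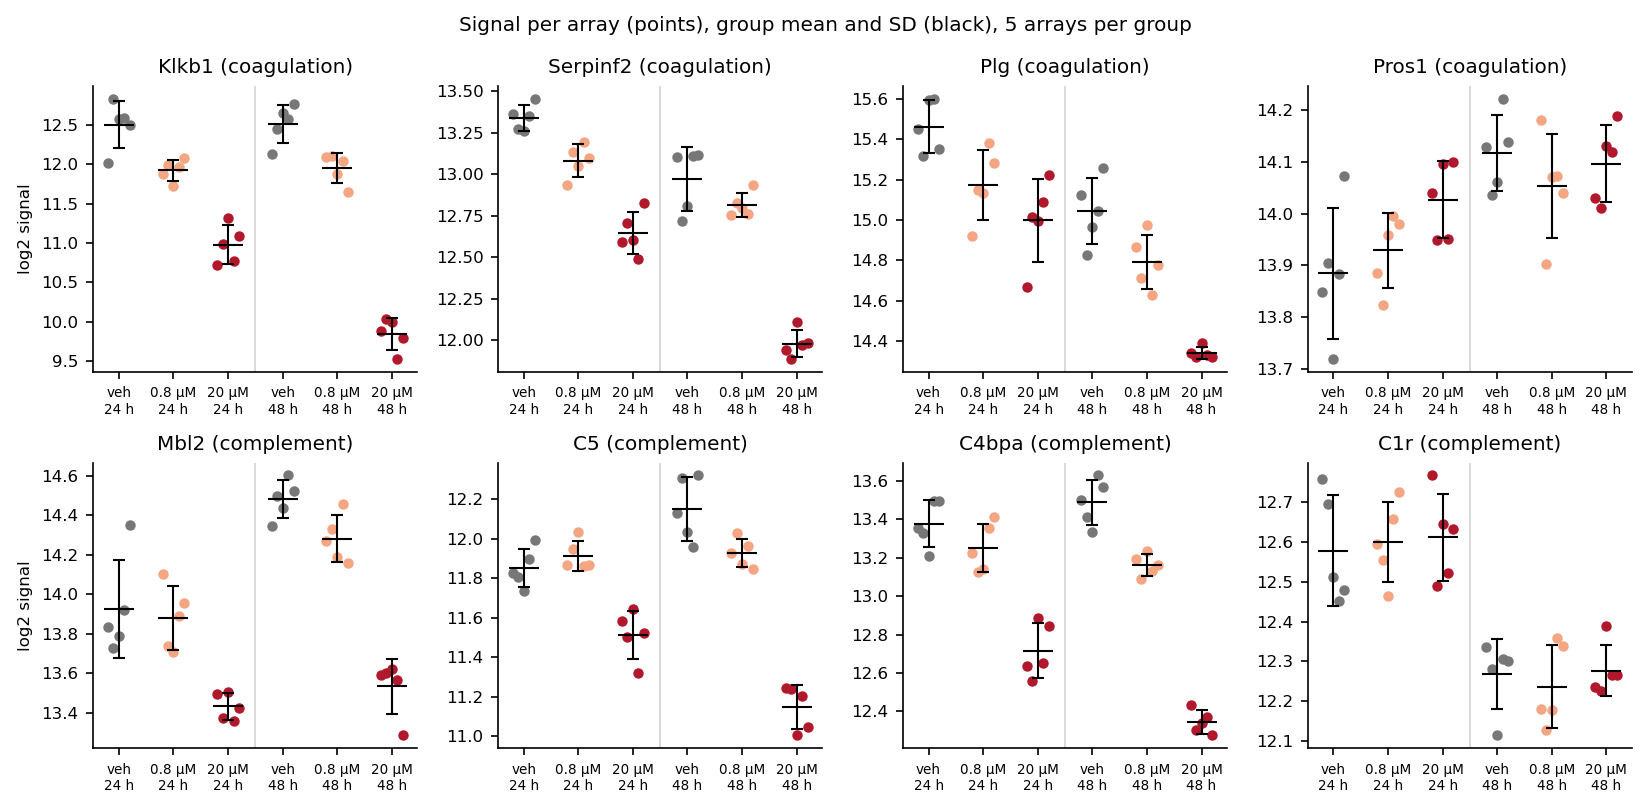
Log2 signal (vertical axis, a separate scale in each panel) on every array for 4 coagulation genes (top) and 4 complement genes (bottom), with points for the 5 arrays of each of the 6 groups and black bars for mean and SD. The 20 µM points of Klkb1, Serpinf2, Plg, Mbl2, C5 and C4bpa lie below the vehicle points of the same time, while those of Pros1 and C1r overlap them.

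In complement, all 4 genes of the lectin pathway were lower at both times. The mannose-binding lectins recognise sugars on microbes, and the MASP proteases bound to them then cut downstream components. Mbl2 read 13.83, 13.73, 13.79, 13.92 and 14.35 in vehicle and 13.50, 13.38, 13.51, 13.36 and 13.43 at 20 µM at 24 h. At 48 h it read 14.35, 14.50, 14.44, 14.60 and 14.53 and 13.59, 13.60, 13.62, 13.57 and 13.29. Treated wells stayed near 13.4 to 13.5 on average at both times while vehicle wells were higher at 48 h, and the changes were -0.49 ± 0.088 (adjusted p = 6.55e-05) and -0.95 ± 0.088 (adjusted p = 1.97e-10). Its second probe set gave -0.22 and -0.36, both called. Mbl1, the other such lectin, read 11.99, 11.88, 11.84, 12.08 and 11.90 in vehicle and 11.36, 11.36, 11, 11.34 and 11.49 at 20 µM at 24 h, and 11.71, 11.63, 11.81, 11.81 and 11.73 and 11.32, 11.16, 11.15, 10.94 and 11.05 at 48 h. Its changes, -0.63 ± 0.073 and -0.61 ± 0.073, were nearly equal.
Masp2, which cuts C4 and the second component, read 13.89, 13.90, 13.97, 13.95 and 13.93 in vehicle and 13.26, 13.08, 13.01, 13.16 and 12.95 at 20 µM at 48 h, and from 13.61 to 13.84 and from 13.19 to 13.40 at 24 h. It changed by -0.40 ± 0.062 and -0.84 ± 0.062, and of its other probe sets 1 was called at both times (-0.57 and -0.85) and 1 at 48 h only (-0.16 and -0.41). Masp1, which activates Masp2, read 10.95, 11.23, 11.13, 11.28 and 11.26 in vehicle and 10.31, 10.57, 10.41, 10.74 and 10.67 at 20 µM at 48 h, and from 10.69 to 11.24 and from 10.19 to 10.62 at 24 h. Its changes were -0.50 ± 0.10 and -0.63 ± 0.10, while its second kept probe set gave -0.29 at 24 h, which did not pass (adjusted p = 0.0671), and -0.51 at 48 h.

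The proteases of the classical pathway were close to their vehicle levels. C1r and C1s are the proteases that C1q carries, and their genes are direct neighbours in the RefSeq annotation. C1r read 12.34, 12.28, 12.11, 12.31 and 12.30 in vehicle and 12.24, 12.23, 12.39, 12.27 and 12.27 at 20 µM at 48 h. The groups overlapped, and its changes were 0.03 ± 0.065 at 24 h (95% interval -0.10 to 0.17) and 0.01 ± 0.065 at 48 h (95% interval -0.12 to 0.14). C1s read 13.60, 13.39, 13.37, 13.50 and 13.43 in vehicle and 13.37, 13.30, 13.36, 13.29 and 13.11 at 20 µM at 48 h. Its change of -0.11 ± 0.055 at 24 h did not pass (adjusted p = 0.172; 0.0359 without 20 µM replicate 3). That of -0.17 ± 0.055 at 48 h did (adjusted p = 0.013), and it was lost without vehicle replicate 1 (0.0561) or 20 µM replicate 5 (0.0658) and with arrays centred on their medians (0.189).

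C3, the component on which all 3 pathways meet, read 15.82, 15.69, 15.79, 15.69 and 15.68 in vehicle and 15.40, 15.50, 15.60, 15.51 and 15.67 at 20 µM at 24 h, a separation with a change of -0.20 ± 0.055 (adjusted p = 0.00651; 0.2 with arrays centred on their medians). At 48 h it ran from 15.19 to 15.34 in vehicle and from 15.09 to 15.22 at 20 µM, and its change of -0.13 ± 0.055 did not pass (adjusted p = 0.0582). That value passed the threshold (0.0341 to 0.0498) without any 1 of 6 arrays, namely replicate 3 of the 48 h vehicle group, replicate 5 of the 48 h 20 µM group, replicates 1 and 5 of the 24 h 20 µM group, replicate 1 of the 24 h 0.8 µM group and replicate 4 of the 48 h 0.8 µM group. It also passed with array weights (0.0318), with only the groups compared in the fit (0.0292), with the array number as a covariate (0.0333) and with sets of array numbers as a block (0.0415). Cfd, factor D, the protease of the alternative pathway, is known mainly as a fat cell product. It ran from 9.01 to 9.48 in vehicle and from 9.18 to 9.57 at 20 µM at 24 h, and from 8.50 to 9.07 and from 8.21 to 8.89 at 48 h. Its changes of 0.10 ± 0.15 (95% interval -0.22 to 0.41) and -0.23 ± 0.15 (95% interval -0.55 to 0.09) did not pass, and the intervals were the widest of the 3 genes called at neither time.

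The 6 terminal components, which assemble the membrane pore, were all lower at 48 h, and all but C9 at 24 h. C5, whose cleavage starts the assembly, read 11.83, 11.80, 11.74, 11.89 and 11.99 in vehicle and 11.58, 11.50, 11.64, 11.32 and 11.52 at 20 µM at 24 h. At 48 h it read 12.13, 12.30, 12.03, 11.96 and 12.32 and 11.25, 11.24, 11.004, 11.21 and 11.05. The gap widened with time, from -0.34 ± 0.071 (adjusted p = 0.000485) to -0.9999 ± 0.071 (adjusted p = 5.2e-13), a 2-fold lower signal at 48 h. C6 read 10.88, 10.70, 10.87, 10.74 and 10.79 in vehicle and 10.25, 10.54, 10.19, 9.95 and 10.09 at 20 µM at 48 h, and from 10.97 to 11.41 and from 10.62 to 10.97 at 24 h. It changed by -0.35 ± 0.10 and -0.59 ± 0.10, and its 24 h call was lost without vehicle replicate 3 (adjusted p = 0.0502).

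The 3 chains of C8 fell together. C8b read 12.94, 12.85, 12.92, 12.99 and 12.85 in vehicle and 12.04, 11.85, 11.98, 11.998 and 11.72 at 20 µM at 48 h, and its changes were -0.41 ± 0.074 and -0.99 ± 0.074. C8a, the gene next to C8b in the RefSeq annotation, read 13.26, 13.34, 13.14, 13.27 and 13.23 in vehicle and 12.51, 12.45, 12.52, 12.40 and 12.30 at 20 µM at 48 h, and changed by -0.42 ± 0.069 and -0.81 ± 0.069. C8g, the third chain, a lipocalin, read 14.40, 14.36, 14.41, 14.35 and 14.42 in vehicle and 13.74, 13.74, 13.65, 13.55 and 13.60 at 20 µM at 48 h, and changed by -0.34 ± 0.06 and -0.73 ± 0.06. All treated arrays were below all vehicle arrays at 48 h for the 3 chains, and at 24 h for C8a and C8b but not for C8g. C9 is the subunit that is repeated around the pore. At 48 h it read 12.59, 12.77, 12.65, 12.71 and 12.66 in vehicle, 12.33, 12.14, 12.26, 12.16 and 12.32 at 0.8 µM and 12.28, 12.13, 12.09, 11.98 and 12.07 at 20 µM. Both doses lay below vehicle and overlapped each other. Against vehicle C9 changed by -0.43 ± 0.078 at 0.8 µM (adjusted p = 0.00109) and by -0.57 ± 0.078 at 20 µM (adjusted p = 4.91e-07). The higher dose differed from the lower by -0.13 ± 0.078 (95% interval -0.29 to 0.03, adjusted p = 0.229). At 24 h the order was another: C9 stood at 0.19 ± 0.078 at 0.8 µM against vehicle (adjusted p = 0.332) and at -0.10 ± 0.078 at 20 µM (adjusted p = 0.395), neither of which passed, and 20 µM was lower than 0.8 µM (-0.29 ± 0.078, adjusted p = 0.00963). No test set this pattern against that of other members.

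The regulators of complement were lower at both times, and the C4b-binding protein genes fell most. This protein, built of C4bpa alpha chains and a C4bpb beta chain, helps factor I to inactivate C4b. C4bpa read 13.35, 13.33, 13.21, 13.49 and 13.49 in vehicle and 12.64, 12.56, 12.89, 12.65 and 12.85 at 20 µM at 24 h. At 48 h it read 13.50, 13.41, 13.33, 13.63 and 13.57 and 12.43, 12.30, 12.34, 12.37 and 12.28. C4bpb read 12.14, 12.14, 12.02, 12.15 and 11.52 and 11.42, 11.46, 11.13, 11.20 and 11.36 at 24 h, and 11.49, 11.29, 11.65, 11.75 and 11.43 and 10.38, 10.28, 10.45, 10.06 and 10.12 at 48 h. Every treated well was below every vehicle well, though by little for C4bpb at 24 h, where vehicle replicate 5 lay near the treated wells. The changes were -0.66 ± 0.067 and -1.14 ± 0.067 for C4bpa (adjusted p = 5.14e-09 and 7.08e-15) and -0.68 ± 0.12 and -1.27 ± 0.12 for C4bpb (adjusted p = 7.55e-05 and 5.2e-10), or 2.21-fold and 2.41-fold at 48 h. Pros1, whose protein binds the beta chain, had the values given above, with no change called.

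Cfi is factor I itself, the protease that cuts C3b and C4b. It read 15.74, 15.70, 15.72, 15.79 and 15.87 in vehicle and 15.64, 15.48, 15.47, 15.55 and 15.46 at 20 µM at 48 h, and changed by -0.16 ± 0.053 (adjusted p = 0.0242) and -0.24 ± 0.053 (adjusted p = 0.000526). The 24 h call was lost without vehicle replicate 3 (0.0613) or 4 (0.0853), without 20 µM replicate 1 (0.0729) or 2 (0.0883), with arrays centred on their medians (0.368), and with only the groups compared in the fit (0.0767). Serping1, the C1 inhibitor, also blocks plasma kallikrein and factor XIIa and so belongs to both cascades. It read 14.81, 14.79, 14.85, 14.95 and 14.94 in vehicle and 14.57, 14.45, 14.50, 14.44 and 14.72 at 20 µM at 24 h, and 14.41, 14.30, 14.55, 14.48 and 14.53 and 14.15, 14.15, 14.08, 14.06 and 14.10 at 48 h. Its changes were -0.33 ± 0.061 and -0.35 ± 0.061, beside -1.53 and -2.67 for Klkb1, which encodes one of its targets.

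At 0.8 µM few members passed the test. At 24 h 1 of 31 was lower, Klkb1, where 0.426% of all genes were lower, and at 48 h 4 were lower, Klkb1, C4bpa, C4bpb and C9, against 1.74%. None was higher at either time (0.4% and 1.6% of all genes were), and the median change was -0.11 at 24 h and -0.16 at 48 h. Klkb1 read 11.87, 11.98, 11.73, 11.96 and 12.08 at 24 h and 12.09, 12.11, 11.88, 12.04 and 11.65 at 48 h. All lay above the 20 µM arrays of their time. At 48 h all lay below the vehicle arrays, and at 24 h replicate 5 overlapped the lowest of them. The changes of Klkb1 were -0.58 ± 0.13 (adjusted p = 0.0317) and -0.56 ± 0.13 (adjusted p = 0.0132). For the 24 h value 7 of the 30 arrays, each left out alone, moved its adjusted p to between 0.0536 and 0.103 (replicates 2 to 5 of vehicle and 2 to 4 of 0.8 µM). The 24 h call was also lost with arrays centred on their medians (0.0815) and with only the groups compared in the fit (0.116). The 48 h call was lost without 0.8 µM replicate 5 (0.0573).
C4bpa read 13.19, 13.09, 13.23, 13.13 and 13.16 at 0.8 µM at 48 h, below every vehicle array, and changed by -0.33 ± 0.067 (adjusted p = 0.00437; 0.0953 with arrays centred on their medians). C4bpb read 11.27, 11.13, 11.09, 10.87 and 10.90, also below vehicle, and changed by -0.47 ± 0.12 (adjusted p = 0.0263). The call of C4bpb was lost without vehicle replicate 3 (0.0654) or 4 (0.0916) and without 0.8 µM replicate 4 (0.064) or 5 (0.0806). Others passed under single alternatives. At 24 h these were Serpinf2 without 48 h vehicle replicate 2 (0.0467) or with the array number as a covariate (0.0493) and Mbl1 without 20 µM replicate 3 (0.0371). At 48 h they were Proc without 24 h 0.8 µM replicate 4 (0.0466), Masp2 without 24 h 0.8 µM replicate 1 (0.0388) or with only the groups compared in the fit (0.0399), C5 without vehicle replicate 4 (0.0428) and Plg with quantile normalization (0.047). Masp1 was called at 48 h on its second probe set (-0.50).

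Set directly against 0.8 µM, the 20 µM wells were lower for 19 of 31 members at 24 h (7 of coagulation and 12 of complement; 6.94% of all genes were lower) and for 25 at 48 h (12 and 13; 12.4%). None was higher (8.69% and 14.6% of all genes were). Cfd at 24 h (0.43 ± 0.15, adjusted p = 0.0567) passed as higher with quantile normalization (0.0311), with arrays centred on their medians (0.0297), with eBayes without trend (0.0327), with array weights (0.0387), and without 24 h 0.8 µM replicate 4 (0.0297), 48 h vehicle replicate 1 (0.0499) or 48 h 20 µM replicate 1 (0.0449). Klkb1 differed by -0.95 ± 0.13 and -2.11 ± 0.13, Serpinf2 by -0.44 ± 0.071 and -0.84 ± 0.071, and C4bpa by -0.53 ± 0.067 and -0.82 ± 0.067. At 48 h the 6 members that did not pass were Pros1, C1r, C1s, C3, Cfd and C9. The count of 24 h calls in coagulation fell to 3 with arrays centred on their medians, and leaving out 0.8 µM replicate 4 or 20 µM replicate 2 gave the lowest count, 4. The 24 h calls of F10, Serpinc1, Cpb2, Masp1, C8g and C4bpb were each lost without any 1 of 2 to 6 arrays, and at 48 h those of F2 (2 arrays) and Cfi (4 arrays).

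**Figure D3:**
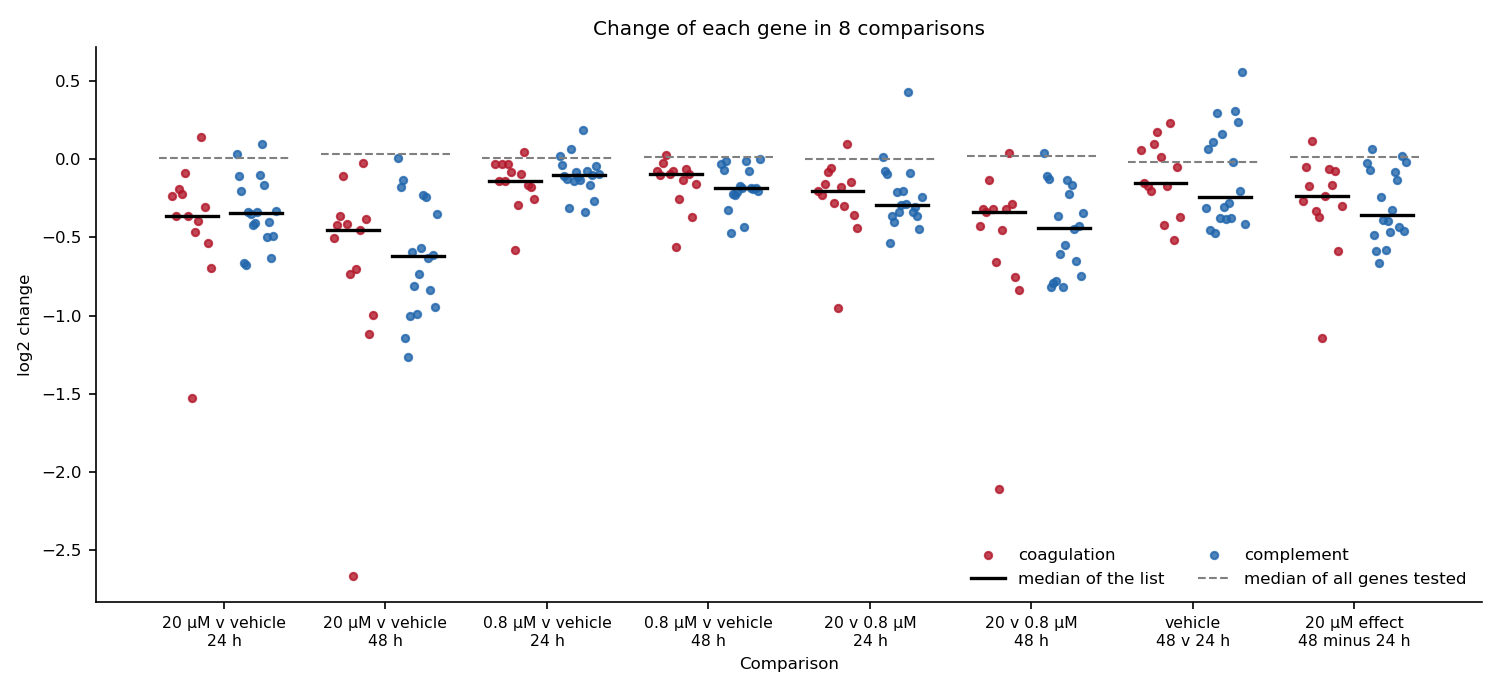
Log2 change (vertical axis) of each coagulation gene (red) and complement gene (blue) in 8 comparisons (horizontal axis), with black bars for the median of each list and dashed grey lines for the median of all genes tested. Both lists lie below the grey line at 20 µM, at -0.36 and -0.34 at 24 h and -0.45 and -0.62 at 48 h, and the vehicle comparison of 48 h with 24 h has points on both sides.

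The members also moved with time in culture when no drug was given. Between 24 h and 48 h in vehicle 13 of 31 fell (6.71% of all genes fell) and 5 rose (6.48% rose). The 5 that fell in coagulation were Serpinc1 (-0.52 ± 0.047), Plg (-0.42 ± 0.088), Serpinf2 (-0.37 ± 0.071), F2 (-0.20 ± 0.044) and Proc (-0.17 ± 0.044), and Pros1 rose (0.23 ± 0.056). In complement C4bpb, C3, Serping1, C8g, C6, C1r, C8b and C9 fell, with changes of -0.47 to -0.28, and Mbl2 (0.56 ± 0.088), Masp1 (0.31 ± 0.10), C5 (0.30 ± 0.071) and Masp2 (0.24 ± 0.062) rose. C3 went from a mean of 15.74 ± 0.066 (SD, n = 5) to 15.29 ± 0.066, and Mbl2 from 13.92 ± 0.25 to 14.48 ± 0.096. For Masp1 8 of the 30 arrays, each left out alone, moved its adjusted p to between 0.0547 and 0.112, C6 was lost without 24 h vehicle replicate 3 (0.0528) and C9 without replicate 1 (0.0638). The other kept probe sets of Masp2 showed no such rise (-0.07 and 0.03), and that of Masp1 did (0.48). F9 did not pass (0.17 ± 0.06, adjusted p = 0.0505). It passed with quantile normalization (0.0015), with array weights (0.0307), with robust eBayes (0.0495) and with sets of array numbers as a block (0.036). For F9 10 of the 30 arrays, each left out alone, moved its adjusted p to between 0.0129 and 0.0496. With arrays centred on their medians the calls of Proc (adjusted p = 0.0648), Pros1 (0.0688) and Masp1 (0.0853) between the times were lost. That of F2 was lost with quantile normalization (0.052).

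The effect of 20 µM was larger at 48 h than at 24 h for 12 members and smaller for none by the test of that difference (2.43% of all genes had a more negative and 1.78% a more positive effect at 48 h). This comparison uses the same vehicle arrays as those above. Coagulation gave 3 of 13, Klkb1 (-1.14 ± 0.18, adjusted p = 0.000177), F9 (-0.37 ± 0.084, adjusted p = 0.00766) and F5 (-0.33 ± 0.095, adjusted p = 0.0399). Complement gave 9 of 18: Mbl2, Masp2, C5, C8a, C8b, C8g, C9, C4bpa and C4bpb. The difference was -0.66 ± 0.10 for C5 and -0.58 ± 0.10 for C8b. For C5 and Mbl2 the vehicle level rose between the times. That of Masp2 rose on its chosen probe set (0.24) but not on its other kept probe sets (-0.07 and 0.03). C5 went from a mean of 11.85 to 12.15 in vehicle and from 11.51 to 11.15 at 20 µM, and Mbl2 from 13.92 to 14.48 and from 13.43 to 13.53. For C8b vehicle itself fell, from 13.21 to 12.91, and the treated mean went from 12.80 to 11.92. Some of these calls rest on few wells. For C4bpb 17 of the 30 arrays, each left out alone, moved its adjusted p to between 0.0506 and 0.104. For F5 11 of the 30 arrays, each left out alone, moved its adjusted p to between 0.0501 and 0.0867. For Mbl2 7 of the 30 arrays, each left out alone, moved its adjusted p to between 0.0533 and 0.0691. The second probe set of Mbl2 and the others of Masp2 gave no such call.

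Other genes of the pathways were read from lists that hold genes outside the members. Of 25 other coagulation genes 18 were tested. At 20 µM 3 were lower at 24 h and 4 at 48 h, and none was higher. These are 16.7% and 22.2% of the list, beside 10.4% and 14.9% of all genes and 17.9% and 23.3% of the genes with a mean log2 signal of 11 or more, and so near the background. Hrg, histidine-rich glycoprotein, a plasma protein that binds heparin and plasminogen, changed by -0.97 ± 0.081 and -2.29 ± 0.081 and was also lower at 0.8 µM (-0.37 ± 0.081 and -0.72 ± 0.081). Both main enzymes of the vitamin K step were lower, Vkorc1, the epoxide reductase that warfarin blocks (-0.40 ± 0.054 and -0.93 ± 0.054), and Ggcx, the carboxylase that modifies the vitamin K-dependent proteins (-0.34 ± 0.066 and -0.56 ± 0.066). Fgb, the beta chain of fibrinogen, was lower at 48 h (-0.25 ± 0.088, adjusted p = 0.028), while Fga (-0.14 ± 0.08) and Fgg (-0.08 ± 0.089) did not pass. The median change of this list was -0.14 at 24 h and -0.10 at 48 h, and that of the complement list below -0.15 and -0.21.

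Of 23 other complement genes 13 were tested. At 24 h 1 was lower and 2 were higher, and at 48 h 2 were lower and 1 was higher. The lower genes are 7.69% and 15.4% of the list, again near the 10.4% and 14.9% of all genes. Vtn, vitronectin, which blocks the membrane pore, changed by -0.34 ± 0.056 and -0.88 ± 0.056. C1qa, a macrophage product, was lower at 48 h (-0.33 ± 0.12). C1qbp, a mitochondrial protein named for its binding to C1q, rose (0.26 ± 0.062 and 0.36 ± 0.062), and Cr1l, a membrane regulator of C3 cleavage, was higher at 24 h (0.15 ± 0.043). Of 10 liver transcription factors listed 9 were tested, and 4 were lower at 24 h (44.4%, beside 10.4% of all genes) and 5 at 48 h (55.6%, beside 14.9%). Foxa1 (-0.85 ± 0.17 and -1.39 ± 0.17) and Cebpa (-0.77 ± 0.11 and -1.13 ± 0.11) fell most, followed by Nr1h4 (-0.53 ± 0.074 and -0.57 ± 0.074). Hnf4a did not pass at either time (-0.04 ± 0.054 and 0.03 ± 0.054).

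**Figure D4:**
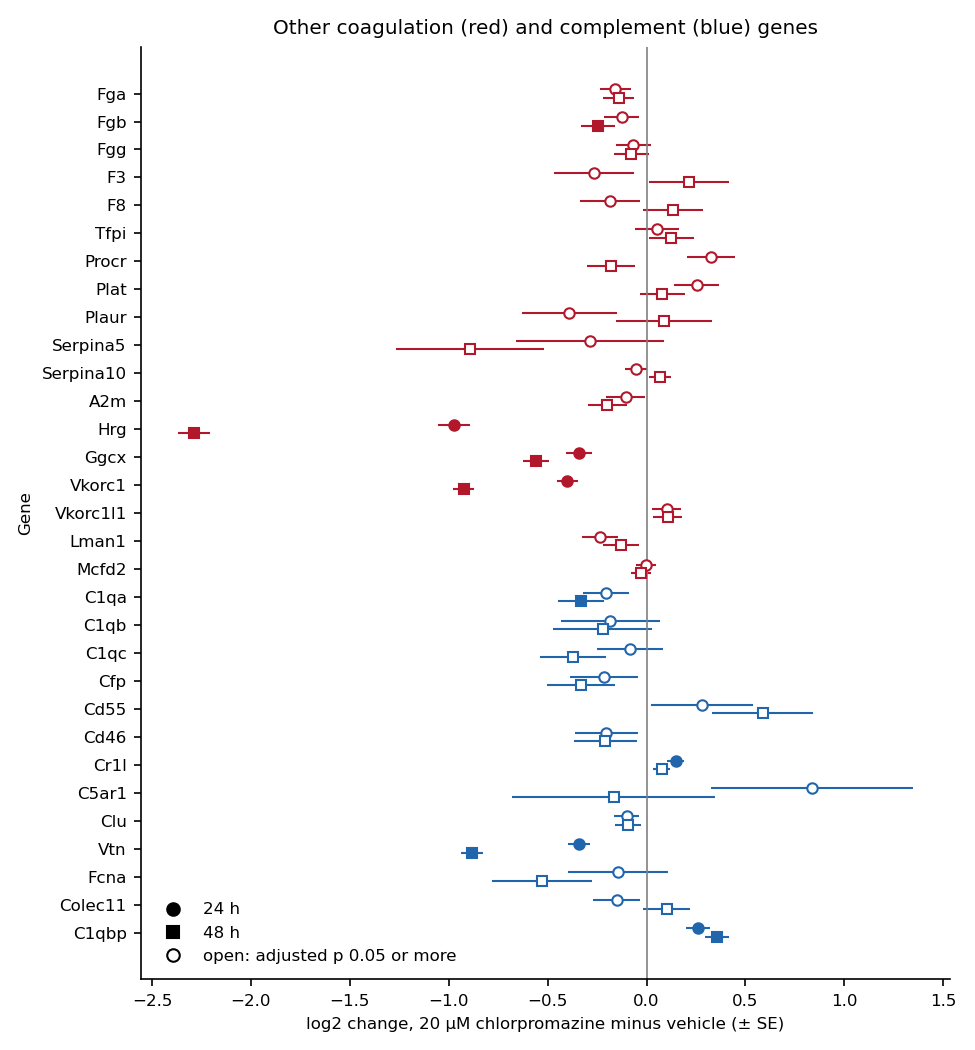
Log2 change (20 µM minus vehicle, horizontal axis, bars ± SE) of 18 other coagulation genes in red and 13 other complement genes in blue, with circles for 24 h, squares for 48 h and open symbols where the adjusted p was 0.05 or more. Hrg lies farthest to the left, at -0.97 and -2.29, Vkorc1, Ggcx and Vtn are filled on the left at both times, and most other points are open.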

How the data were processed

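RNA of 30 wells was hybridised to 1-colour Affymetrix rat arrays. The deposited values are linear intensities per probe set, made by the authors with MAS5 per the submitters' processing notes, whose version is not given in the sources used here. In the deposited table every array had the same trimmed mean, 1499.9, and array medians of 379.8 to 448.8 intensity units. Here signals were floored at 16 and put on the log2 scale with no further normalization. Of 31099 probe sets 20832 carry 1 gene symbol in the platform annotation, 436 several, and 9831 are not listed. A probe set was kept if above the 40th percentile of its array on at least 5 arrays, and where a gene had several, the one of highest average log2 signal stood for it. One mean per group was fitted with limma 3.58.1 (R 4.3.3; lmFit, eBayes with trend), and p-values were adjusted by Benjamini-Hochberg over 11494 genes in each of 8 comparisons. The fit was tested on simulated data. Fold changes are between signals of the same probe set. Among the members, the level of a gene was not set against that of another. For the cell type markers, levels of different probe sets were summed and set beside each other. Every member is accounted for, and per-array values are given for members whose 20 µM and vehicle arrays do not overlap at a time or whose change is among the 8 largest of a comparison. Members and gene lists were chosen with earlier results of these data known. The labels number no replicates, so replicate numbers follow the order of deposit and pair no samples. Correlations of arrays within groups ran from 0.9392 to 0.9553, and the number of arrays limits the precision.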

Additional observations from a re-analysis of the deposited data

Results flagged for a closer look

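In 7 of 186 groups of 5 arrays, 1 array stood apart from the other 4 by more than Dixon's critical value of 0.71, where chance alone gives about 1 group in 20. They were Proc at 0.8 µM and 24 h (replicate 4, 13.72 against 13.9 for the nearest array), Mbl1 at 0.8 µM and 48 h (replicate 5, 11.47 against 11.56), Mbl2 at 20 µM and 48 h (replicate 5, 13.29 against 13.57), C1r in vehicle at 48 h (replicate 3, 12.11 against 12.28) and at 20 µM at 48 h (replicate 3, 12.39 against 12.27), C1s at 20 µM and 24 h (replicate 3, 13.48 against 13.28) and C4bpb in vehicle at 24 h (replicate 5, 11.52 against 12.02).

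The effect of 20 µM against vehicle differed between 48 h and 24 h by the limma test of the difference for 12 genes, always toward a lower signal at 48 h. The differences on the log2 scale were -1.14 for Klkb1, -0.37 for F9, -0.33 for F5, -0.46 for Mbl2, -0.44 for Masp2, -0.66 for C5, -0.39 for C8a, -0.58 for C8b, -0.40 for C8g, -0.47 for C9, -0.48 for C4bpa and -0.59 for C4bpb.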

How the results depend on the processing

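Across 13 settings other than leaving out an array, no member reversed a called direction, and of the single changes 3125 kept their side of the threshold, 69 lost a call and 30 gained one. Over the 30 arrays left out in turn these numbers were 7307, 95 and 38. The array numbers in the titles form 5 sets of 6 consecutive numbers, each with 1 array of every group. No label says that a set is a shared culture or day, so the sets pair no samples in the main values. With these sets as a block, an alternative chosen after seeing the data, every count over a list was within 1 of its main value, no call was lost, and Pros1 at 20 µM at 24 h, C3 at 20 µM at 48 h and F9 in vehicle between the times passed. Leaving out 1 array gave 9 to 11 called coagulation genes and 12 to 15 complement genes for 20 µM against vehicle at 24 h, and 11 to 12 and 14 to 16 at 48 h. For 0.8 µM the ranges were 0 to 2 and 0 to 1 at 24 h and 0 to 2 and 2 to 4 at 48 h. For 20 µM against 0.8 µM they were 4 to 8 and 10 to 13 at 24 h. Centring arrays on their medians gave 8 coagulation and 12 complement genes for 20 µM against vehicle at 24 h, and 11 and 14 at 48 h. For 20 µM against 0.8 µM at 24 h it gave 3 coagulation and 8 complement genes. It gave 0 coagulation calls at 0.8 µM at 24 h and 1 for the difference between times. It also moved the share of lower calls over all genes from 43.8% to 30.9% at 24 h (828 lower and 1850 higher), and from 57.6% to 68.3% for the difference between times. At 0.8 µM and 24 h, eBayes without trend and a fit of only the groups compared gave 0 coagulation calls, and the array number as a covariate gave 2. At 0.8 µM and 48 h quantile normalization gave 2. Array weights gave 5 coagulation genes for the difference between times. A threshold of 0.01 gave 0 coagulation calls at 0.8 µM at both times, 4 for 20 µM against 0.8 µM at 24 h, and 5 complement genes for the difference between times. The cause of these shifts was not tested, other than that a stricter threshold passes fewer genes. No member was dim or at the floor on any array.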
